A study of Homo sapiens with 5 samples.

Results

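Expression of 5 feedback genes of the ERK pathway was followed across all conditions: DUSP4, DUSP5, DUSP6, SPRY2 and PHLDA1. They were picked by gene symbol from a table of 4202 genes, and all 5 were found in it. The choice was made with their values known, so every value below is a description and none was tested. MDA-MB-231 is a triple-negative, mesenchymal-like human breast cancer line. Its cells were kept for 4 h as mock or exposed to bortezomib, LU-102, CGI-1746, or CGI-1746 and LU-102 together. CGI-1746 is labelled a BTK inhibitor and the series concerns its action on the proteasome, LU-102 is known as an inhibitor of the trypsin-like proteasome sites, and bortezomib, a clinical proteasome inhibitor, served as a control. All groups are the same line with no stated genetic change, doses are not stated in the labels, and 1 total RNA library stands for each condition. No replicate error exists, so a difference between conditions cannot be told apart from one between cultures.

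The RAS, RAF, MEK and ERK kinases pass growth factor signals to the nucleus, and active ERK switches on genes that turn the signal back down. Among these are phosphatases that remove phosphate from ERK itself: DUSP4 and DUSP5 work in the nucleus and DUSP6 in the cytoplasm. DUSP5 and DUSP6 act chiefly on ERK, whereas DUSP4 also acts on the JNK and p38 kinases. SPRY2, a Sprouty protein, restrains receptor signalling upstream of RAF, and PHLDA1 is a pleckstrin homology protein whose gene is induced by growth factors. Transcripts of such genes are widely read as a gauge of ERK output.

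ETS factors, several of which ERK phosphorylates, bind sites built around CGGAA. Promoter windows of 300 bases, from 250 before to 50 after a start site, were taken from RefSeq (GRCh38.p14) and were matched by symbol for 3 of the 5 genes. The windows of DUSP6, PHLDA1 and the outermost of 3 SPRY2 starts are shown because windows could be printed for these genes, all of which stood below mock in the 3 inhibitor libraries. All lie on the minus strand and are written 5′ to 3′, with CGGAA, its complement TTCCG, and the SP1 motif GGGCGG or CCGCCC in capitals.
DUSP6 (chr12:89352452-89352751): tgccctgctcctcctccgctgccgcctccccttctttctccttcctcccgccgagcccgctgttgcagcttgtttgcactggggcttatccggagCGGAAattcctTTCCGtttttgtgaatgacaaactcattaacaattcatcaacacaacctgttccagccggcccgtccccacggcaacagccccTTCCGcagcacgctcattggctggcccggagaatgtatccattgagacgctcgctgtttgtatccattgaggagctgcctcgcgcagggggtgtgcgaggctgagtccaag
PHLDA1 (chr12:76031727-76032026): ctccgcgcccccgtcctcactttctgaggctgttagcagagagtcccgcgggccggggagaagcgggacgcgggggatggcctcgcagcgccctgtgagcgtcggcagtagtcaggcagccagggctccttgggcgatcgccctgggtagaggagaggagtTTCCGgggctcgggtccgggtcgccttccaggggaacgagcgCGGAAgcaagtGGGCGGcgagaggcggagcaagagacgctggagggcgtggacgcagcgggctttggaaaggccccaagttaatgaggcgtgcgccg
SPRY2 (chr13:80341077-80341376): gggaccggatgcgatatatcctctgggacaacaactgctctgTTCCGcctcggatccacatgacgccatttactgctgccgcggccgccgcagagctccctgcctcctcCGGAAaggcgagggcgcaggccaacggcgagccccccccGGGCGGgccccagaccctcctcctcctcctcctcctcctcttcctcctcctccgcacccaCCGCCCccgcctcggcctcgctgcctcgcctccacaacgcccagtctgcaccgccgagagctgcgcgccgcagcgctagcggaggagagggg
DUSP6 held 3 matches to the ETS core, the first bases of which lay at -155, -144 and -61 from the start site. PHLDA1 held 2, at -89 and -47, and the SPRY2 window 2, at -208 and -141. On either strand this short motif occurs in 34.9% of the 35116 windows of the same length, so its presence is common. The other SPRY2 windows, at chr13:80339610-80339909 and chr13:80340059-80340358, had none. The SP1 motif, found in 45% of all windows, occurred in the PHLDA1 window and in the outermost and innermost SPRY2 windows, and not in the DUSP6 window. No window of the 3 genes held the longer ETS site CCGGAAGT (4.14% of windows), the AP-1 motif TGANTCA (7.71%), the cyclic AMP element TGACGTCA (1.85%), a heat shock element (0.49%), TATAAA (11.5%) or a CArG box (1.29%). GC content was 58.3% in the DUSP6 window, 69.3% in that of PHLDA1 and 71% in the outermost SPRY2 window, against a median of 58.7% for all windows.

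In the RefSeq annotation (GRCh38.p14; the authors used hg38, per the processing notes) DUSP5 lies on chromosome 10 from 110497907 to 110511533, DUSP6 on chromosome 12 from 89347235 to 89352501 and PHLDA1 on chromosome 12 from 76025447 to 76031776. SPRY2 lies on chromosome 13 from 80335976 to 80341126, and DUSP4 on chromosome 8. Exons of DUSP6 overlap 1 gene on the other strand in GENCODE 29 and those of PHLDA1 overlap 2, and whether reads were counted by strand is not stated. AU-rich ATTTA motifs, which occur in many short-lived mRNAs, were counted in the 3′ UTR of the longest coding transcript of each gene and numbered 14 in PHLDA1, 6 in DUSP4, 2 in SPRY2, 1 in DUSP6 and 0 in DUSP5. Per kb these were 3, 1.51, 2.56, 0.495 and 0, against a median of 1.48 over 3716 genes of the table. The 5 genes therefore did not share a high density of this motif.

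Deposited levels behave as read numbers per gene length, scaled by library, on a scale that is not stated. If the levels are RPKM, the 5 libraries held about 16800000 to 18600000 reads each. The bortezomib library stood apart from the other 4: 2231 genes reached a level of 1 in it, against 4161 to 4177, and the 5 most abundant genes held 73.8% of its summed level, against 55.9% to 65.9%. All 8 mesenchymal marker genes looked for were listed, at a summed level of 191 to 212 in the other 4 libraries and 43.4 with bortezomib. Of 9 luminal and epithelial genes 3 were listed (KRT8, KRT18 and KRT19, at a summed 48.2 to 53.1 and 10.2), and ESR1, PGR, ERBB2, CDH1, EPCAM and GATA3 were not. None of 8 blood, endothelial and fibroblast genes was listed. The table lists only genes whose 5 levels sum to at least 5.04, so an unlisted gene is not shown to be absent. The part of the bortezomib library's makeup in the levels below was not tested.

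DUSP6, the cytoplasmic ERK phosphatase, was highest in mock and lower in every treated library. Its level was 12.4 in mock, 9.61 with LU-102, 9.31 with CGI-1746, 7.59 with both inhibitors and 4.78 with bortezomib. Levels with the single inhibitors differed by a ratio of 1.03, with a 95% counting interval of 0.929 to 1.15, and so could not be separated. Every other step down this order had an interval that left out 1, from 1.17 to 1.42 for mock over LU-102 to 1.39 to 1.81 for the combination over bortezomib. The last step holds for the levels as deposited: with median-of-ratios scaling the combination stood below bortezomib, at a ratio of 0.755 (0.664 to 0.859). These intervals, like all below, rest on reads estimated from the longest coding transcript of the gene, about 916 for DUSP6 in mock, and cover counting error only. With the shortest annotated coding transcript of DUSP6, of 567 bases, the estimate would be 118 reads, and the ratio of CGI-1746 to mock could then lie between 0.568 and 1. The ratio of LU-102 to mock could lie between 0.586 and 1.03, and that of the combination to CGI-1746 between 0.588 and 1.12. Those steps would then not be separated.

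DUSP4, a nuclear phosphatase, followed the same direction at lower levels, as deposited, although its bortezomib value turned with another scaling given below. It had 5.09 in mock, 4.4 with LU-102, 3.87 with CGI-1746, 3.8 with the combination and 2.65 with bortezomib. The levels with CGI-1746 and with the combination differed by a ratio of 1.02 (interval 0.876 to 1.18), and those with LU-102 and CGI-1746 by 1.14 (0.988 to 1.32). Neither pair could be separated by counting. Mock stood over LU-102 by 1.16 (1.01 to 1.32).

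DUSP5, the nuclear phosphatase that acts chiefly on ERK, had another order. It was highest with CGI-1746, at 12, next with the combination, at 11.3, then in mock at 7.86 and with LU-102 at 7.4, and lowest with bortezomib at 3.07. Thus both libraries that received CGI-1746 stood above both non-bortezomib libraries that did not. The 2 high levels differed by a ratio of 1.06 (interval 0.934 to 1.2), and mock and LU-102 by 1.06 (0.909 to 1.24). The step between the pairs, combination over mock, was 1.44 (1.25 to 1.66).

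SPRY2, the Sprouty inhibitor, had a level of 7.07 in mock and 4.79 in the combination, between which lay CGI-1746 at 5.88 and LU-102 at 5.71, and 1.04 with bortezomib. CGI-1746 and LU-102 could not be separated (ratio 1.03, interval 0.867 to 1.23), nor could LU-102 and the combination (1.19, 0.994 to 1.43). The bortezomib level rested on about 53 reads, the fewest behind any value of the 5 genes, and was 14.8% of mock. As deposited, the combination stood above it 4.59-fold (3.35 to 6.25), and with median-of-ratios scaling 2.18-fold (1.61 to 2.95).

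PHLDA1 was the most abundant of the 5 genes per length, ranking 183rd among all genes in mock. As deposited, it had a level of 32.9 in mock, 29 with LU-102, 27.4 with CGI-1746, 22.9 with the combination and 17.3 with bortezomib. With about 4477 reads in mock its counting error was small, and each step in this order had an interval without 1, the smallest being LU-102 over CGI-1746 at 1.06 (1.01 to 1.11). With median-of-ratios scaling the combination stood below bortezomib, at a ratio of 0.63 (0.598 to 0.664), as it did for DUSP4 at 0.681 (0.582 to 0.798). Counting error does not hold the variation of cultures or library preparation, so whether such a step would recur between cultures was not tested.

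**Figure D1:**
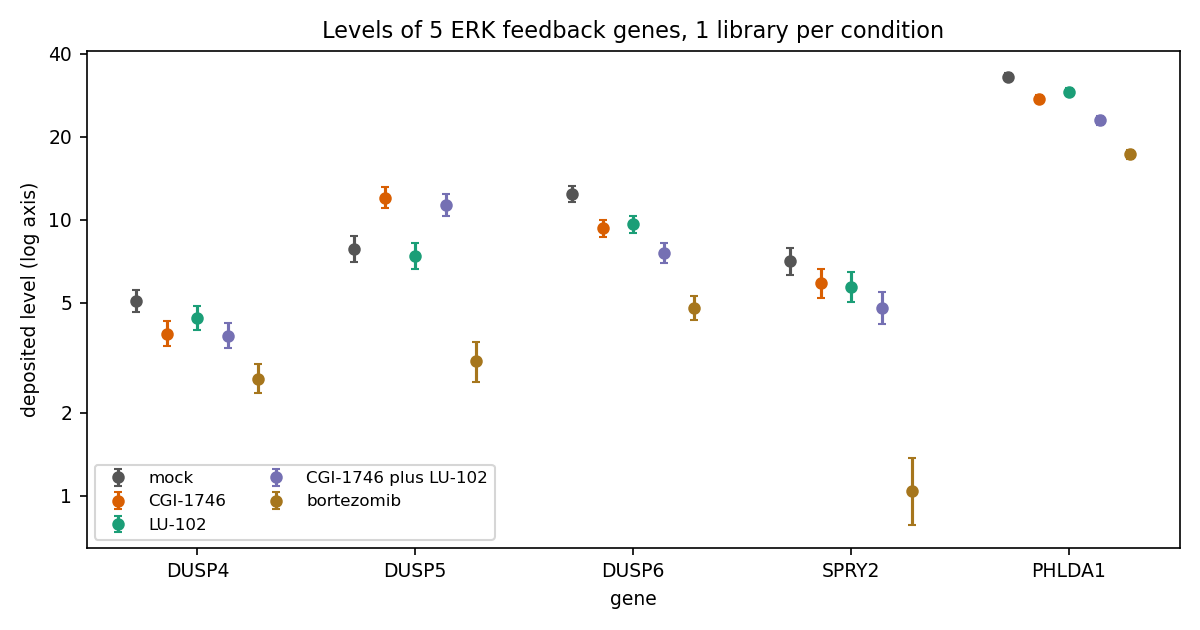
Deposited level of each gene (log axis) in the 5 libraries, 1 point per library, with 95% Poisson counting intervals from estimated reads that cover no variation between cultures. As deposited, DUSP4, DUSP6, SPRY2 and PHLDA1 are highest in mock (for DUSP4 and PHLDA1 not above bortezomib after median-of-ratios scaling), and DUSP5 is highest in both libraries that received CGI-1746, at 12 and 11.3.

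CGI-1746 against mock shows the BTK inhibitor alone, and here DUSP5 was higher and the other 4 genes were lower. On the scale of log2(level + 1), DUSP6 stood at -0.37 and DUSP4 at -0.32, while DUSP5 stood at 0.55. PHLDA1 stood at -0.26 and SPRY2 at -0.23, PHLDA1 just short of 1.2-fold, which rounds to the same 0.26 on this scale. As ratios of levels these were 0.753 for DUSP6 (interval 0.681 to 0.832), 0.761 for DUSP4 (0.662 to 0.874), 1.53 for DUSP5 (1.33 to 1.76), 0.832 for PHLDA1 (0.797 to 0.869) and 0.832 for SPRY2 (0.707 to 0.983). Thus 2 of the 5 were lower and 1 higher by 1.2-fold or more, where 2.15% of the 4186 genes compared were lower and 2.68% higher. None reached 2-fold, which 0.167% of genes did in either direction. In rank DUSP6 was the 25th lowest and DUSP4 the 37th lowest, PHLDA1 the 96th and SPRY2 the 138th, and DUSP5 was the 18th highest. The genes were chosen on these differences, so their counts are not read against the background. The split of all genes was 90 lower and 112 higher as deposited, and 48 and 143 with median-of-ratios scaling.

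LU-102 against mock shows the second inhibitor alone, and differences were smaller or similar. DUSP6 stood at -0.33, SPRY2 at -0.27, PHLDA1 at -0.18, DUSP4 at -0.17 and DUSP5 at -0.08. The ratio of levels was 0.777 for DUSP6 (interval 0.704 to 0.858) and 0.807 for SPRY2 (0.684 to 0.954). It was 0.88 for PHLDA1 (0.843 to 0.919) and 0.866 for DUSP4 (0.759 to 0.991), whose differences did not reach 1.2-fold. For DUSP5 it was 0.942 (0.806 to 1.1), an interval with 1 inside it. The median of all genes was itself -0.06. Thus 2 of the 5 were 1.2-fold lower and 0 higher, against 3.91% and 3.34% of 4193 genes, and 0 reached 2-fold, against 0.0715%. SPRY2 lay near the line, and after median-of-ratios scaling or centring on the all-gene median DUSP6 alone remained past it. That scaling changed the split of all genes from 164 lower and 140 higher to 91 and 174.

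The combination against mock gave the lowest values of DUSP6, SPRY2, PHLDA1 and DUSP4 outside bortezomib. DUSP6 stood at -0.64, PHLDA1 at -0.51, SPRY2 at -0.48 and DUSP4 at -0.34, and DUSP5 at 0.48. Ratios of levels were 0.614 for DUSP6 (interval 0.551 to 0.682), 0.694 for PHLDA1 (0.662 to 0.726), 0.677 for SPRY2 (0.568 to 0.806), 0.747 for DUSP4 (0.651 to 0.86) and 1.44 for DUSP5 (1.25 to 1.66). So 4 of the 5 were lower and 1 higher by 1.2-fold, against 2.51% and 9.48% of 4189 genes, and 0 passed 2-fold, against 0.215%. DUSP6 was the 5th lowest of all genes compared, PHLDA1 the 13th and SPRY2 the 17th, whereas DUSP4 was the 52nd lowest and DUSP5 the 68th highest. Among the 1429 genes that reached a level of 5 in mock or the combination, DUSP6 was the 3rd lowest and PHLDA1 the 5th. All genes split into 105 lower and 397 higher as deposited, and into 245 and 184 with median-of-ratios scaling.

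Bortezomib against mock gave low values of all 5 genes as deposited, in a library where most genes were low. SPRY2 stood at -1.98, DUSP6 at -1.21, DUSP5 at -1.12, PHLDA1 at -0.90 and DUSP4 at -0.74, where the median of all genes was -0.98. As ratios of levels these were 0.148 for SPRY2 (interval 0.109 to 0.2), 0.387 for DUSP6 (0.342 to 0.436), 0.391 for DUSP5 (0.32 to 0.476), 0.524 for PHLDA1 (0.499 to 0.55) and 0.522 for DUSP4 (0.448 to 0.607). All 5 were 1.2-fold lower, as were 86.6% of 4189 genes, and 4.7% were higher. SPRY2, DUSP6 and DUSP5 were 2-fold lower, as were 48.1% of genes. After median-of-ratios scaling, which puts the all-gene median at -0.44, DUSP4 stood at 0.02 and PHLDA1 at 0.03, so their direction turned, while SPRY2 stood at -1.37, DUSP6 at -0.36 and DUSP5 at -0.33. Relative to the all-gene median SPRY2 stood at -1 and DUSP4 at 0.24, with the other 3 genes between -0.23 and 0.08. Among the 1385 genes that reached a level of 5 in mock or bortezomib the median was lower, at -1.43. Of the 5 genes SPRY2 alone stood below it, and DUSP6 was the 831st lowest and DUSP5 the 895th. Median-of-ratios scaling changed the split of all genes from 3627 lower and 197 higher to 2538 and 699. Centring on the all-gene median changed it to 1343 and 1366. Because levels are scaled by library, they show neither the number of cells nor the amount of RNA per cell.

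**Figure D2:**
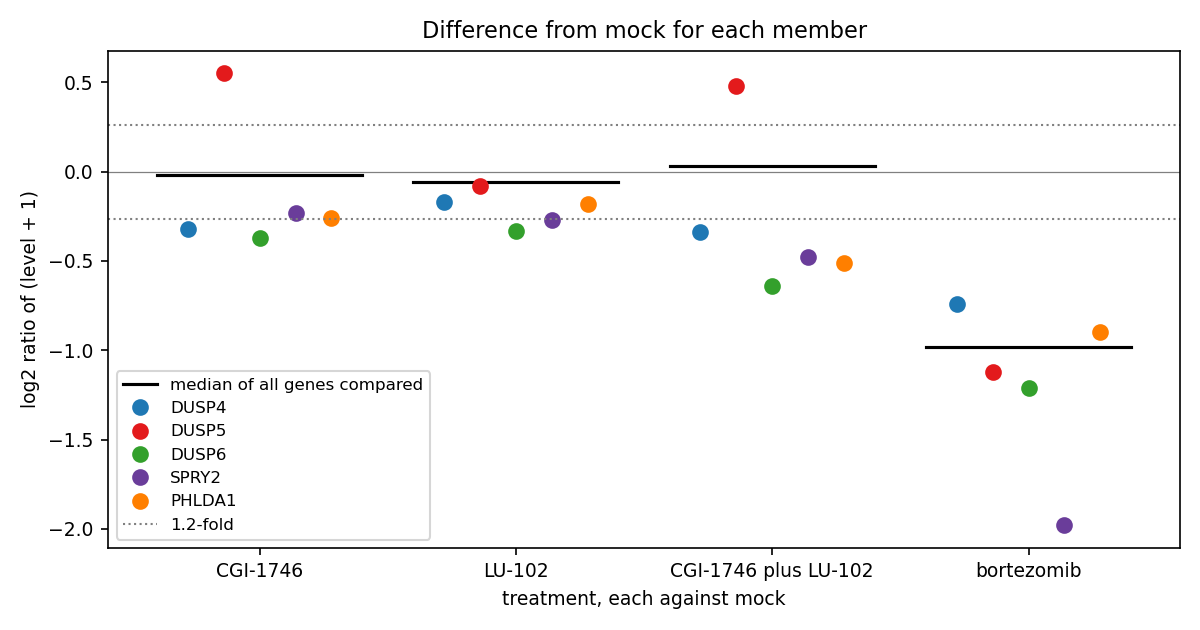
Difference of each gene from mock as log2 ratio of (level + 1), 1 point per gene and treatment, with the median of all genes compared (black bars) and 1.2-fold (dotted lines). DUSP5 lies at 0.55 with CGI-1746 and 0.48 with the combination, apart from the other 4 genes, and with bortezomib the 5 genes lie on both sides of the all-gene median of -0.98.

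DUSP5 was set against DUSP4 and DUSP6 within each library, where the scaling of the library cancels in a ratio of levels. DUSP5 over DUSP6 was 0.636 in mock, 0.771 with LU-102 and 0.642 with bortezomib, and 1.29 with CGI-1746 and 1.49 with the combination. Per length, then, DUSP6 was the more abundant of the 2 in the 3 libraries without CGI-1746 and DUSP5 in both libraries with it. The ratio was 2.03 times that of mock with CGI-1746 (interval 1.71 to 2.4), 2.35 times with the combination (1.97 to 2.79), 1.21 times with LU-102 (1.01 to 1.45) and 1.01 times with bortezomib (0.805 to 1.27).

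DUSP5 over DUSP4 was 1.54 in mock, 1.68 with LU-102 and 1.16 with bortezomib, and 3.1 with CGI-1746 and 2.98 with the combination. Relative to mock this was 2.01 times with CGI-1746 (interval 1.65 to 2.43), 1.93 times with the combination (1.59 to 2.34), 1.09 times with LU-102 (0.89 to 1.33) and 0.749 times with bortezomib (0.586 to 0.956). On the log2(level + 1) scale DUSP5 less the mean of the other 2 phosphatases was 0.90 with CGI-1746 (0.67 to 1.13) and 0.97 with the combination (0.73 to 1.2). With LU-102 it was 0.18 (-0.07 to 0.43) and with bortezomib -0.15 (-0.46 to 0.16), and both of these intervals hold 0. The 3 genes were grouped this way because of these values, so the contrast is a description.

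**Figure D3:**
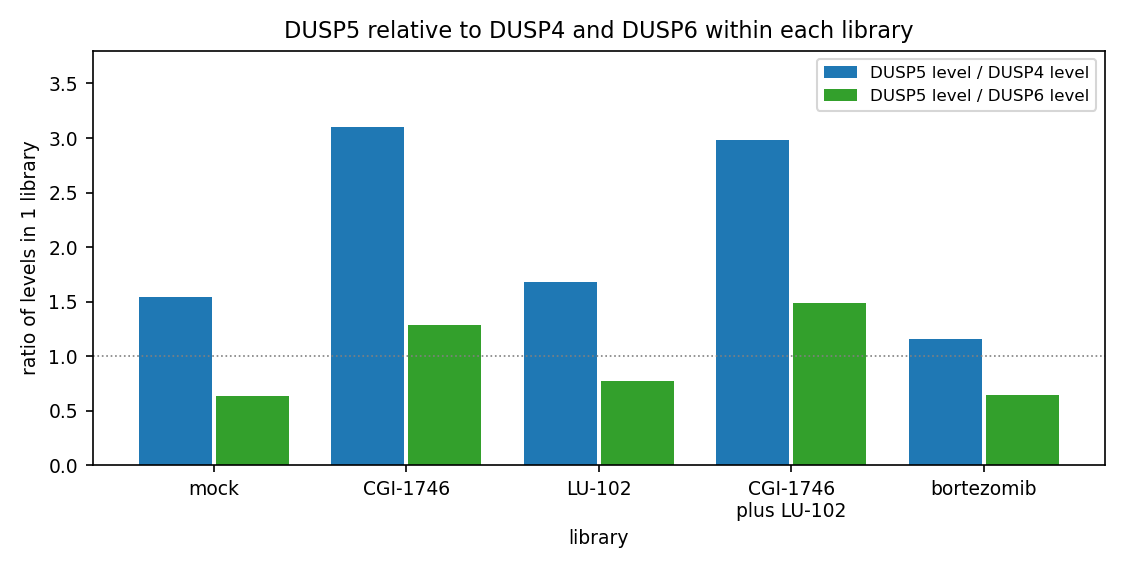
Level of DUSP5 divided by that of DUSP4 (blue) and of DUSP6 (green) in each of the 5 libraries, on a linear axis from 0, with a dotted line at 1. Both ratios are highest in the 2 libraries with CGI-1746, and DUSP5 over DUSP6 is above 1 in those 2 libraries.

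Setting the combination against LU-102 shows what went with CGI-1746 where both libraries received LU-102. DUSP5 stood at 0.55, PHLDA1 at -0.33, DUSP6 at -0.30, SPRY2 at -0.21 and DUSP4 at -0.17. DUSP5 had a ratio of levels of 1.53 (interval 1.33 to 1.77), the same size as its ratio for CGI-1746 over mock. Of the 5 genes 2 were lower and 1 higher by 1.2-fold, against 1.34% and 6.25% of 4193 genes. The all-gene median was 0.08, and -0.02 with median-of-ratios scaling, under which 4 of the 5 were 1.2-fold lower and all genes split into 135 lower and 72 higher in place of 56 and 262.

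Against CGI-1746 alone, the combination shows what went with LU-102. DUSP6 stood at -0.26, PHLDA1 and SPRY2 at -0.25, DUSP5 at -0.08 and DUSP4 at -0.02. DUSP6 had a ratio of 0.815 (interval 0.728 to 0.912), PHLDA1 0.833 (0.795 to 0.874) and SPRY2 0.814 (0.677 to 0.974). DUSP5, at 0.943 (0.833 to 1.07), and DUSP4, at 0.982 (0.848 to 1.14), had intervals that hold no change. On the scale of log2(level + 1) DUSP6 alone was 1.2-fold lower and none was higher, against 1.05% and 6.46% of 4193 genes. The ratio of levels of SPRY2 was as low as that of DUSP6. SPRY2 fell short of the line because the added 1 weighs more at its lower level. Scaling by median of ratios made this 3 of the 5, and the split of all genes 125 lower and 88 higher in place of 44 and 271.

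Departure from additivity is the log2 value of the combination less the sum of both single differences. It was 0.15 for DUSP4 (interval -0.13 to 0.43), 0.07 for DUSP6 (-0.14 to 0.28), 0.02 for SPRY2 (-0.33 to 0.36), 0.00 for DUSP5 (-0.28 to 0.28) and -0.07 for PHLDA1 (-0.17 to 0.02). As deposited, every interval holds 0, and the median over 4197 genes was 0.10. The level expected from adding both differences was 7.18 for DUSP6, where 7.59 was found, and 4.72 for SPRY2, where 4.79 was found. For PHLDA1 24.1 was expected and 22.9 found. For PHLDA1 this depended on the scaling: its departure was -0.24 (-0.33 to -0.15) with median-of-ratios scaling and -0.17 (-0.27 to -0.08) relative to the all-gene median, and both intervals leave out 0. Intervals of the other 4 genes held 0 under both. As deposited, those of SPRY2 and DUSP5 would also allow a departure as large as the 1.2-fold line in either direction.

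**Figure D4:**
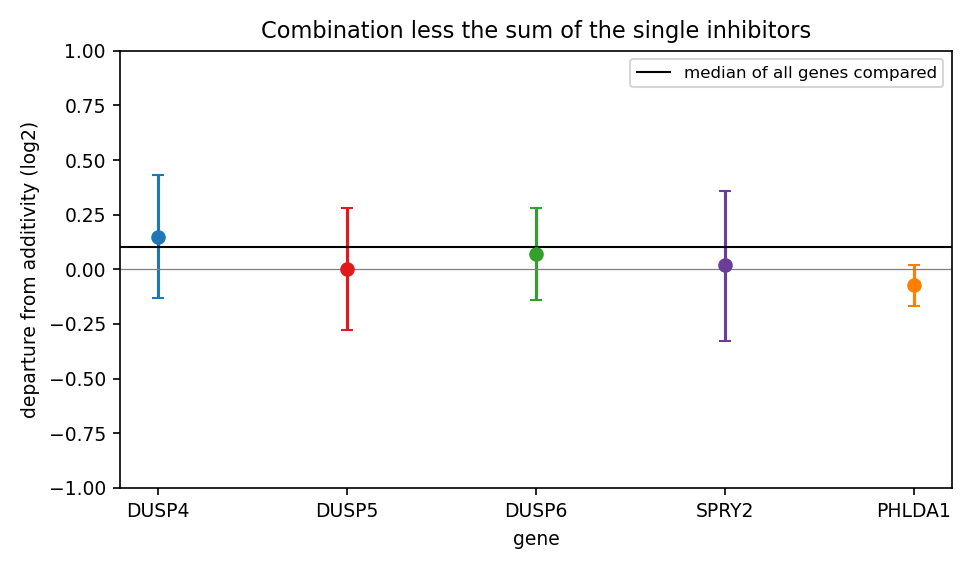
Departure from additivity (log2) of the combination for each gene, with 95% counting intervals, and the median of all 4197 genes compared as a black line at 0.10. All 5 intervals hold 0 for the levels as deposited, and that of PHLDA1 does not after median-of-ratios scaling or relative to the all-gene median.

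The rest of the pathway was described through lists of named roles, in which 48 genes other than the 5 were listed and compared. Their 1.2-fold counts are on the log2(level + 1) scale, where the added 1 shrinks ratios of low levels. With CGI-1746 1 of the 48 was 1.2-fold lower and 0 higher, with LU-102 3 were lower and 0 higher, and with the combination 3 were lower and 1 higher: SPRY1, AREG and FOSB, and DUSP23, all at mock levels of 1.09 to 2.19. Of all genes compared, 2.15%, 3.91% and 2.51% were lower and 2.68%, 3.34% and 9.48% higher, in the same order. Medians of the 48 were -0.03, -0.07 and 0.00, beside all-gene medians of -0.02, -0.06 and 0.03. With bortezomib 39 of the 48 were lower and 6 higher, where 86.6% of all genes were lower and 4.7% higher. Their median was -0.99 beside -0.98. The lower count of the 48 with the combination was 8 after median-of-ratios scaling, under which 245 of 4189 genes were lower.

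Of 10 MAP kinase phosphatases 5 were listed. Neither of the 2 beside DUSP4, DUSP5 and DUSP6 passed 1.2-fold on the log2(level + 1) scale in an inhibitor library. DUSP1, which acts on p38, JNK and ERK, had a level of 10.2 in mock and 10.7 in the combination, with 9.6 under CGI-1746, 9.03 under LU-102 and 5.85 under bortezomib. DUSP7, a cytoplasmic ERK phosphatase related to DUSP6, had 5.37 in mock and 4.9 in the combination, with 4.33, 5.01 and 3.39 under the single agents in the same order, which put it at -0.26 with CGI-1746 and -0.11 with the combination. The atypical phosphatases DUSP3, DUSP12 and DUSP14 lay between -0.01 and 0.10 in the 3 inhibitor comparisons, where DUSP23 reached 0.43 with the combination at a low level of 1.82 against 1.09.

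SPRY1, a second Sprouty gene, was low in the combination as SPRY2 was, at a level of 1.07 against 2.19 in mock and a log2 ratio of -0.62. With the single inhibitors it had 1.89 and 2.03. SPRY4 did not share this: its level was 6.15 in mock and 6.16 in the combination, with 6.54 under CGI-1746 and 6.22 under LU-102. ERRFI1, a feedback inhibitor of the EGF receptor, stood at -0.10 in the combination, 0.08 under CGI-1746 and -0.23 under LU-102. IER3, an early response gene, was within -0.13 and 0.00 in these libraries and had a level of 199 with bortezomib against 111 in mock. PHLDA2, a relative of PHLDA1, stood at 0.01, 0.23 and 0.21 with CGI-1746, LU-102 and both.

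Upstream, the receptor tyrosine kinases EGFR, AXL, EPHA2 and DDR1 lay between -0.13 and 0.22 in the inhibitor comparisons, with 0 of 4 past 1.2-fold. Among ligands HBEGF, which binds the EGF receptor, stood at -0.19, -0.18 and -0.24 with CGI-1746, LU-102 and both, AREG at -0.22, -0.07 and -0.29 on levels near 1, and VEGFA at 0.16, -0.10 and 0.02. Of 7 listed cascade genes, NRAS stood at -0.27 with LU-102, and HRAS and PEBP1, the latter a RAF inhibitor, at 0.25 with the combination. PTPN11, a phosphatase that relays receptor signals, lay between -0.15 and -0.03. On the JNK and p38 side MAP2K3 stood at 0.25 with the combination, MAPK13 at -0.14, MAP2K7 at 0.07 and MAPK14 at 0.05.

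Downstream, 18 genes of transcription factors linked to ERK had a median of -0.05 in the combination, -0.04 under CGI-1746 and -0.10 under LU-102. They include ELK1, ELK3, ELK4 and SRF, and whether each transcript responds to ERK in these cells was not tested. IER5 was the 1 gene past 1.2-fold with CGI-1746, at -0.34, and FOSB, at -0.44, and KLF10, at -0.40, were the 2 with LU-102, while FOSB, at -0.27, was the 1 with the combination. ETV4, an ETS factor of ERK output, stood at -0.26 with CGI-1746, on a level of 2.11 against 2.72. A published score of MAPK activity sums 10 genes, of which 8 were listed and 4 are among the 5 genes described here. Its median was -0.26 in the combination, -0.24 under CGI-1746 and -0.15 under LU-102. Without those 4 genes, the medians over SPRY4, CCND1, EPHA2 and ETV4 were -0.07, -0.14 and -0.02 in that order. On the log2(level + 1) scale 0 of 4 passed 1.2-fold in each. CCND1, the cyclin D1 gene, stood at -0.17, -0.15 and -0.14.

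**Figure D5:**
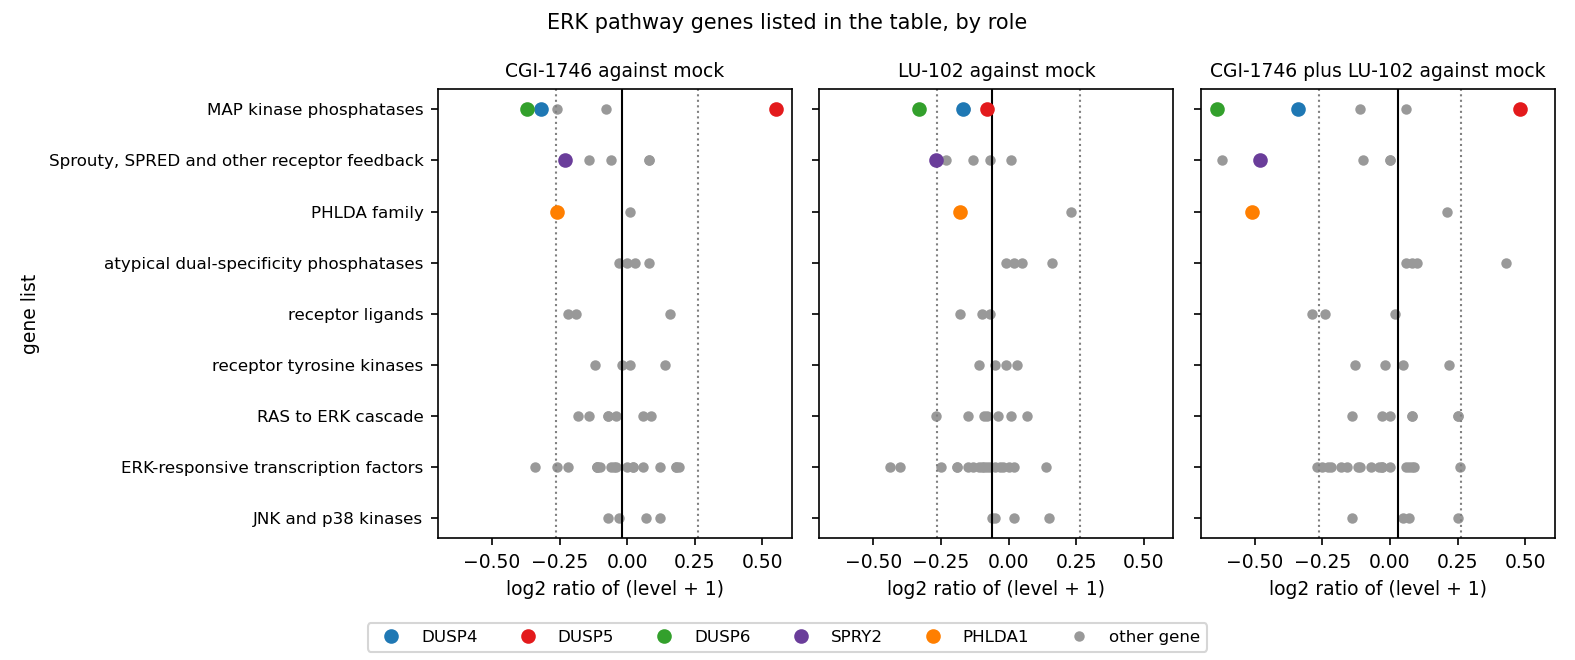
Log2 ratio of (level + 1) against mock for each listed gene of 9 role lists, in 3 panels for CGI-1746, LU-102 and the combination, with the all-gene median (black line) and 1.2-fold (dotted lines). The 5 genes are in colour, and with the combination SPRY1, at -0.62, is the grey point nearest to DUSP6.

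Likeness of pattern was measured as the root mean square difference of the 4 log2 ratios to mock, over 1480 genes that reached a level of 5 in any library. The ratios share the mock library, so likeness is a description. Nearest to DUSP6 were SOWAHC (0.129), PNRC2, a factor of mRNA decay (0.149), and ZBTB18, a transcription repressor (0.168), with PHLDA1 8th at 0.195. Nearest to DUSP4 were FZD7, a WNT receptor (0.0581), AJUBA, a LIM protein (0.0764), and LOC441155 (0.0803), with PHLDA1 9th at 0.12. PHLDA1 was nearest to CHRAC1, a chromatin remodelling subunit (0.119), DUSP4 (0.12) and FZD7 (0.127), with SPRY2 850th at 0.545. Without the bortezomib ratio SPRY2 was the 5th nearest to PHLDA1, at 0.0562, and DUSP4 the 17th, at 0.104.

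SPRY2 was nearest to ENC1, an actin-binding protein (0.103), PDP1, a phosphatase of pyruvate dehydrogenase (0.104), and F3, tissue factor (0.11). Its rank among neighbours of DUSP6 was 292nd, at 0.402, and without the bortezomib ratio it was the 2nd nearest gene to DUSP6, at 0.13, after CXCL8 (0.049). DUSP5 had the most distant neighbours of the 5: SEPHS2, a selenophosphate synthetase (0.158), NEU1, a lysosomal sialidase (0.165), and SCARNA28 (0.197). DUSP4 was 1043rd and DUSP6 1190th in the order of likeness to DUSP5, both farther than the median gene at 0.507. Without bortezomib the nearest genes to DUSP5 were IFIT3, an interferon-induced gene (0.129), DOLK, a dolichol kinase (0.139), and HSPH1, an HSP110 chaperone (0.141).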

How the data were processed

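Per the labels, the authors had 5 total RNA libraries of MDA-MB-231 made, 1 per condition, with paired reads of 150 bp and 40000000 reads planned for each. The submitters' processing notes name Partek and hg38. The sources used here name no aligner, annotation or normalization.

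The table the authors deposited holds a normalized expression signal (level) for 4202 genes and each library, named a least squares mean in its header, and a column of total counts that equals the sum of the 5 levels. The deposited ratio columns equal the ratio of 2 levels, and the deposited fold change, given as a signed score, restates that ratio. Deposited p-values and FDR values were not used, since 1 library per condition gives no replicate error. Of the level columns, 7 repeat a library and were not used.

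Differences are log2(level + 1) of 1 library less that of another, over genes that reached a level of 1 in at least 1 of the pair, and a gene was counted at 1.2-fold or 2-fold on that scale. No test was run across genes or samples. Ratios of levels as deposited have exact Clopper-Pearson counting intervals at 95%, and levels have exact Poisson intervals. Departures, double ratios, the DUSP5 contrast and ratios after median-of-ratios scaling have normal-approximation intervals from the same reads. For departures and the contrast, which are on the log2(level + 1) scale, the error does not allow for the added 1. Reads were estimated as level times the longest coding transcript of GENCODE 29 (RefSeq transcript lengths, first intended, were not at hand), divided by the value of 1 read. That value, 53.8 to 59.4 in level times bp, came from short RNA genes whose products are multiples of 0.5 reads: 36 of 38, 36 of 38, 34 of 35, 34 of 34 and 25 of 26 genes in mock, CGI-1746, LU-102, the combination and bortezomib lay within 0.1 of a whole number of such steps. If both mates of a pair were counted, these intervals are too narrow, and if a step of 0.5 is in fact 1 read, too wide. The log2 ratio step was tested on simulated data, and the counts and intervals were not.

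The members, lists and thresholds were chosen with earlier results of these data known. Genes named are the 5 members, the listed genes of the phosphatase, Sprouty and PHLDA lists, up to 4 genes of each other list with the largest inhibitor difference, and the 3 genes nearest in pattern to each member. CXCL8, IFIT3, DOLK, HSPH1 and the listed keratins were named after their values were seen. RefSeq (GRCh38.p14) held 4126 of the 4202 symbols, 3915 as protein-coding. Alternatives were the pseudocount (0.1 and 5), scaling, centring, level filter, gene type, threshold and transcript length. Software was matplotlib 3.10.9, scipy 1.17.1, pandas 2.3.3, numpy 2.4.6 and Python 3.11.15.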

Additional observations from a re-analysis of the deposited data

How the results depend on the processing

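With 1 library per condition, culture variation has no estimate and leaving out a replicate could not be done. No paired analysis was possible because each group has 1 library. Of 60 alternative values of the 5 genes' ratios to mock in the 3 inhibitor libraries, 58 stayed within counting error and 0 turned direction. The exceptions, with the combination, were DUSP6 at -0.46 with a pseudocount of 5 and PHLDA1 at -0.61 with median-of-ratios scaling. DUSP5 less the mean of DUSP4 and DUSP6 was 0.63 with CGI-1746 and 0.67 with the combination at a pseudocount of 5, which shrinks ratios of low levels.

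The bortezomib ratios depended on scaling. With median-of-ratios scaling DUSP4 stood at 0.02, PHLDA1 at 0.03, DUSP5 at -0.33, DUSP6 at -0.36 and SPRY2 at -1.37, and centred on the all-gene median these were 0.24, 0.08, -0.14, -0.23 and -1. With a pseudocount of 5 they were -0.40, -0.77, -0.67, -0.83 and -1, and SPRY2 was -2.65 with 0.1. Of the 5 genes 3 were 1.2-fold lower with median-of-ratios scaling, beside 2538 of 4189 genes, and 1 with centring, beside 1343.

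The count of the 5 genes lower by 1.2-fold with CGI-1746 was 1 with a pseudocount of 5, beside 19 of all genes. It was 3 with a pseudocount of 0.1, beside 179. With LU-102 it was 0 with a pseudocount of 5, beside 22 of all genes. It was 1 with median-of-ratios scaling, beside 91, and 1 with centring, beside 62. With the combination it was 3 with a pseudocount of 5, beside 29. At a threshold of 1.5-fold on the log2(level + 1) scale 0 were lower or higher with CGI-1746 and 0 lower with LU-102. With the combination 1 was lower and 0 higher. Over all genes these counts were 7 and 17 with CGI-1746, 3 and 17 with LU-102 and 8 and 32 with the combination. DUSP5 with CGI-1746 fell short only through the added 1, at 0.55 for a ratio of levels of 1.53. Against LU-102 the combination had 1 of the 5 lower with a pseudocount of 5, beside 9 of all genes. With median-of-ratios scaling 4 were lower, beside 135, and with centring 3, beside 118. At 1.5-fold 0 were lower and 0 higher, beside 8 and 22. PHLDA1 stood at -0.46 with median-of-ratios scaling and -0.42 with centring. Against CGI-1746 the combination had 2 of the 5 lower with a pseudocount of 0.1, beside 84 of all genes, and 0 with 5, beside 13. With median-of-ratios scaling 3 were lower, beside 125, and with centring 3, beside 70. At 1.5-fold 0 were lower and 0 higher, beside 6 and 20. PHLDA1 stood at -0.39 with median-of-ratios scaling. The departure of PHLDA1 was -0.24 with that scaling and -0.17 with centring. The filter on level and the restriction to protein-coding genes changed none of the counts of the 5 genes.

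Of the 20 ratios to mock, 19 had a counting interval without 1 with the longest transcript and 15 with the shortest. Those that changed were DUSP4 and DUSP6 with LU-102, and DUSP6 and SPRY2 with CGI-1746, whose upper ends round to 1. Counts over all genes moved with the pseudocount: with 0.1, 179 were lower and 233 higher with CGI-1746, 489 and 262 with LU-102, and 218 and 657 with the combination. With 5 these were 19 and 33, 22 and 52, and 29 and 120. Restricting the table to levels of at least 5 left 47 and 43, 95 and 76, and 56 and 204, because fewer genes were compared, and 1208 and 107 with bortezomib. Of the 48 other pathway genes, 7 were lower and 6 higher with the combination at a pseudocount of 0.1, and 0 and 0 at 5. With CGI-1746 these were 4 and 0 at 0.1 and with LU-102 4 and 1, and 0 and 0 at 5 with each. Matched gene by gene to the same one of the 5, 0 of the 15 nearest genes in pattern were shared when bortezomib was left out, and 7 when genes with a level of at least 1 were admitted. Of the 14 different genes among the 15, 2 were among the 3 nearest to another of the 5 without bortezomib.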
